A study of Mus musculus with 48 samples.

Results

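Bmal1-KO cells were compared with wild-type (WT) cells at the 42 h point of a time course in AML12 cells, immortalised mouse hepatocytes. The comparison comprised the 8 libraries titled 42 h, 4 of each genotype, out of 48 in the series. The libraries were taken by title, and this time was picked with its greater depth known. WT cells carried the genotype label wild-type, and KO cells carried the label Bmal1-KO. How Bmal1 was removed, and whether the KO line was 1 clone, was not given in the sources used here. Both genotypes were grown in serum with insulin, transferrin, selenium and dexamethasone, and both received a 1-h pulse of dexamethasone, a glucocorticoid, to synchronise their clocks. The starting moment of the 42 h is not in the labels. Nothing there says that the 4 libraries of a genotype were separate cultures, so p-values measure the spread between libraries, which may be technical. RNA was measured by bulk Smart-seq3, which makes full-length cDNA from small amounts of RNA. The other 40 libraries, at 18, 24, 30, 36 and 48 h, served as comparison. In each genotype 1 number in the library names covered 36 to 48 h (17 in WT, 19 in KO) and another covered 18 to 30 h (16 in WT, 18 in KO), so an effect of genotype and one of library number cannot be told apart.

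BMAL1 pairs with CLOCK and binds E-box sequences, where it switches on genes that include its own repressors of the PER and CRY families and the nuclear receptors REV-ERB. These repressors in turn shut the pair down, which gives a daily cycle. In liver cells the cycle reaches genes of lipid, glucose, bile acid and drug metabolism, and loss of BMAL1 stops the core oscillator. The rows of the count table carry no gene names or identifiers, so none of these genes could be looked up. The features are therefore described by level, size and direction, and the labels were checked neither against Bmal1 itself nor against hepatocyte markers.

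The libraries of 42 h were the deepest of the series on average, with 519653 counts against 259432 to 435972 at the other times. In WT they held 359494, 390577, 703522 and 795991 counts, and in KO 672369, 545698, 205518 and 484055 (replicates 1 to 4). The genotypes overlapped in depth (two-sided exact permutation p = 0.6), and KO replicate 3 was the shallowest of the 8. Features detected at equal depth separated them. In 205518 counts, the size of that shallowest library, 11468 to 11555 features were expected in WT libraries and 11182 to 11253 in KO libraries, a difference of -299.0 (exact permutation p = 0.0286, the smallest that 4 against 4 allows; adjusted over 3 measures 0.0429). The 100 most abundant features took 19.8% ± 0.55 of the counts in WT and 21.4% ± 0.47 in KO (SD, n = 4; exact permutation p = 0.0286, adjusted 0.0429). Libraries were more alike within a genotype than between. Over the 3823 features whose log2 CPM (CPM, counts scaled to library size) averaged at least 6, Pearson's r was 0.949 to 0.976 between WT libraries, 0.932 to 0.972 between KO libraries and 0.876 to 0.916 across genotypes. These are relations across features in libraries that share a platform. The first principal component of the same features held 50.3% of the variance, with the WT libraries at -14.6 to -11.4 and the KO libraries at 10.0 to 14.0. On the second, with 15.9%, KO replicate 3 was at -15.8 and the other KO libraries were at -0.07 to 8.05.

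KO cells had higher levels of 773 features and lower levels of 628 (edgeR quasi-likelihood, adjusted p under 0.05). Together these 1401 features were 16.3% of the 8617 tested, or 8.97% higher and 7.29% lower. A feature that passed this test is written as called. Features higher in KO took 12.3 to 13.2% of the tested counts in WT libraries and 18.8 to 20.3% in KO libraries. Features lower in KO took 10.6 to 10.98% in WT and 5.94 to 6.26% in KO. These shares describe features that the test itself selected. The median change over all tested features was 0.0014 on the log2 scale, since TMM scaling centres the typical feature near 0. Without KO replicate 1, which had the most counts of the KO libraries, 485 features were higher and 446 lower.

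**Figure D1:**
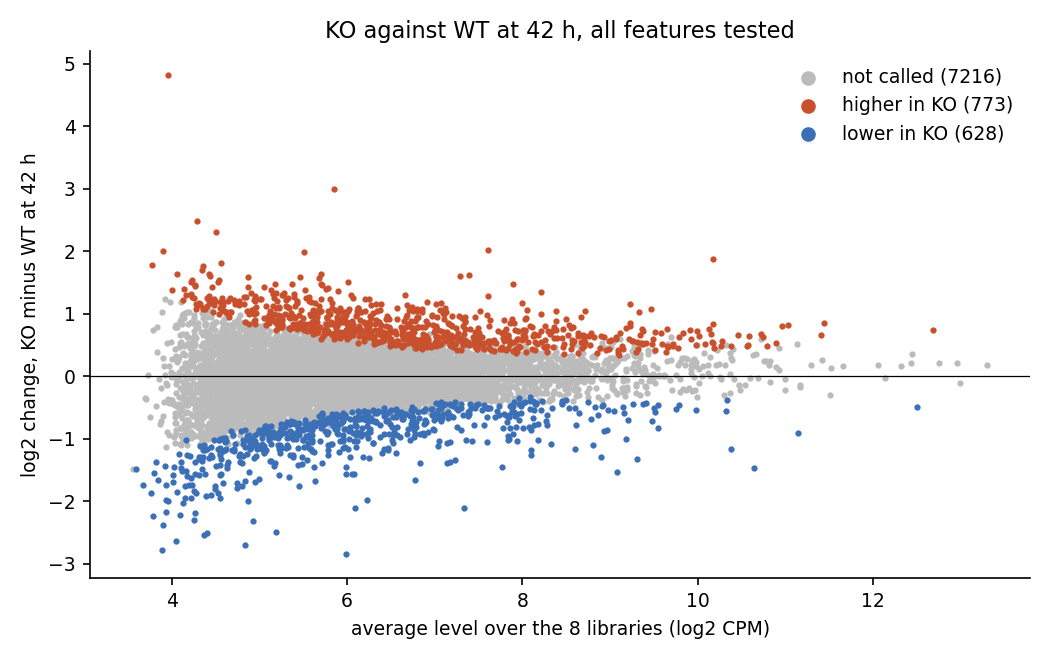
Each point is 1 of 8617 tested features, with its average level over the 8 libraries of 42 h (log2 CPM) across and its log2 change in KO against WT upward. Orange points are the 773 called higher and blue points the 628 called lower; calls reach smaller changes at higher levels.

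Most of the differences were moderate. Of the called features, 287 (20.5%) changed by less than 1.5-fold, 675 (48.2%) by 1.5 to 2-fold, 415 (29.6%) by 2 to 4-fold and 24 (1.71%) by 4-fold or more. The median change was 1.69-fold among features higher in KO and 1.85-fold among those lower. Decreases outnumbered rises among large changes. With a change of at least 2-fold there were 195 rises and 244 decreases, and of the 24 features at 4-fold or more, 6 were higher and 18 lower. Their levels were low, with a median of 33.1 CPM against 53.1 CPM for all tested features, and 204 of these 439 lay under 30 CPM. When the change was tested against a minimum of 1.5-fold, 45 features were higher and 75 lower.

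The 4 KO values lay entirely above or below the 4 WT values for 1744 features, 20.2% of those tested, with 922 higher and 822 lower. Among called features the groups did not overlap for 612 of the 773 higher and 497 of the 628 lower, a share of 79.2% and 79.1%. For the other 292 called features at least 1 library crossed into the range of the other genotype. Another 635 features had separate groups but did not pass the adjusted test.

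The direction of the differences went with the level of the feature. Among 100 features with a mean of 1000 CPM or more, 28 were higher and 7 lower in KO, and the median change of all 100 was 0.22 on the log2 scale. Only 3 of these 35 calls reached 2-fold. In the class of 300 to 1000 CPM, 102 of 459 features were higher and 43 lower, and from 100 to 300 CPM 256 of 1735 were higher and 151 lower. Between 30 and 100 CPM rises and falls were nearly balanced, with 300 and 284 of 4062. Below 30 CPM the balance turned, with 87 of 2261 higher and 143 lower and a median change of -0.08. The same order from low to high was present at each of the other times, where the median change was -0.10 to -0.05 below 30 CPM and 0.21 to 0.33 at 1000 CPM or more. KO libraries also had fewer features at equal depth and a larger share in the most abundant 100, as given above, and the part of these in the direction of the calls was not tested.

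**Figure D2:**
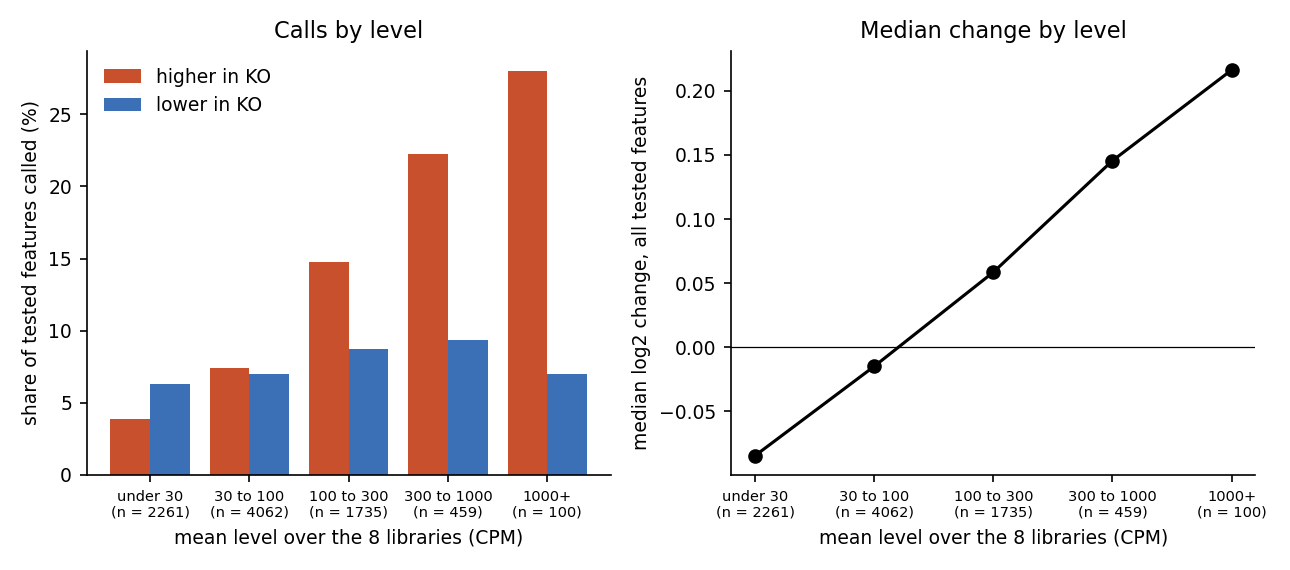
Left, the share of tested features called higher (orange) or lower (blue) in KO at 42 h for 5 classes of mean level (CPM over the 8 libraries; n is the number tested); right, the median change (log2) in each class, whether called or not. The median goes from -0.08 below 30 CPM to 0.22 at 1000 CPM or more.

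Named rows were limited to the 2 largest rises and the 2 largest falls with a count in every library and separate groups, because a row number identifies no gene. Row 4905 had the larger rise, at 19.7, 17.7, 22.8 and 13.7 CPM in WT and 208, 125, 107 and 127 CPM in KO (replicates 1 to 4). Every KO library was at least 4 times above every WT library. The log2 change was 3.0 (SE 0.28, adjusted p = 4.50e-13, edgeR), on 41 counts in WT and 276 in KO. Row 10986 was steadier between libraries, at 101.4, 98.5, 88.5 and 88.4 CPM in WT and 355, 356, 396 and 407 CPM in KO. Its spread was small in both genotypes (94.2 ± 6.72 and 379 ± 27.0 CPM, SD, n = 4), and its log2 change was 2.01 (SE 0.15, adjusted p = 2.33e-16, edgeR), the smallest adjusted p among features higher in KO.

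The largest falls were rows 30457 and 5105. Row 30457 was at 149, 177, 154 and 136 CPM in WT and at 19.1, 29.2, 20.3 and 14.8 CPM in KO. The log2 change was -2.84 (SE 0.30, adjusted p = 2.97e-11, edgeR), from 340 counts in WT to 38 in KO. Row 5105 was at 45.1, 78.3, 104.2 and 75.9 CPM in WT and 12.7, 15.6, 5.08 and 16.97 CPM in KO. The WT libraries spread over more than a doubling, yet the lowest of them lay above the highest KO library. Its log2 change was -2.49 (SE 0.31, adjusted p = 4.71e-09, edgeR), and the value of KO replicate 3 rested on 1 count.

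Among the 3 most abundant features called in each direction the changes were smaller than in the 4 rows above. The most abundant feature called higher ranked 5th of all features, at 5328, 5072, 4895 and 5004 CPM in WT and 8705, 8561, 9284 and 7488 CPM in KO. The groups were far apart, but its adjusted p was 0.0459 (log2 change 0.75, SE 0.27, edgeR). The fit shares 1 spread over all 48 libraries. The feature varied widely in WT at 18 h (7546 ± 4110 CPM) and at 24 h (12203 ± 14006 CPM, SD, n = 4). The part of this in its adjusted p was not tested. Its log2 change was -0.67 at 24 h, and it was called at no other time. With the 8 libraries of 42 h alone its adjusted p was 3.09e-10 (edgeR), and it missed the threshold when any single library of 42 h was left out of the 48-library fit. Counting these, its call was lost in 16 of 23 alternatives, and DESeq2 gave it no adjusted p. The next feature called higher went from 2059 ± 159 to 3725 ± 293 CPM (SD, n = 4; log2 change 0.86, SE 0.14, adjusted p = 3.00e-06, edgeR). The third went from 2170 ± 239 to 3412 ± 98.1 CPM (SD, n = 4), and its log2 change was 0.65 (SE 0.11).

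Of the abundant features lower in KO, the first ranked 6th of all features. It was at 7091, 7084, 6741 and 6534 CPM in WT and 5012, 4753, 4888 and 4964 CPM in KO. Its log2 change was -0.48 (SE 0.12, adjusted p = 3.22e-03, edgeR). The spread within each genotype was narrow and the groups were separate, but the call was lost with no filter on low counts (adjusted p = 0.0506, edgeR) and against a minimum change of 1.5-fold. The second went from 3083 ± 149 to 1648 ± 74.5 CPM and the third from 2652 ± 173 to 961 ± 87.0 CPM (SD, n = 4). Their log2 changes were -0.90 (SE 0.13) and -1.47 (SE 0.17), with adjusted p of 1.65e-07 and 1.07e-09 (edgeR). The third had the largest decrease among the 100 most abundant features.

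**Figure D3:**
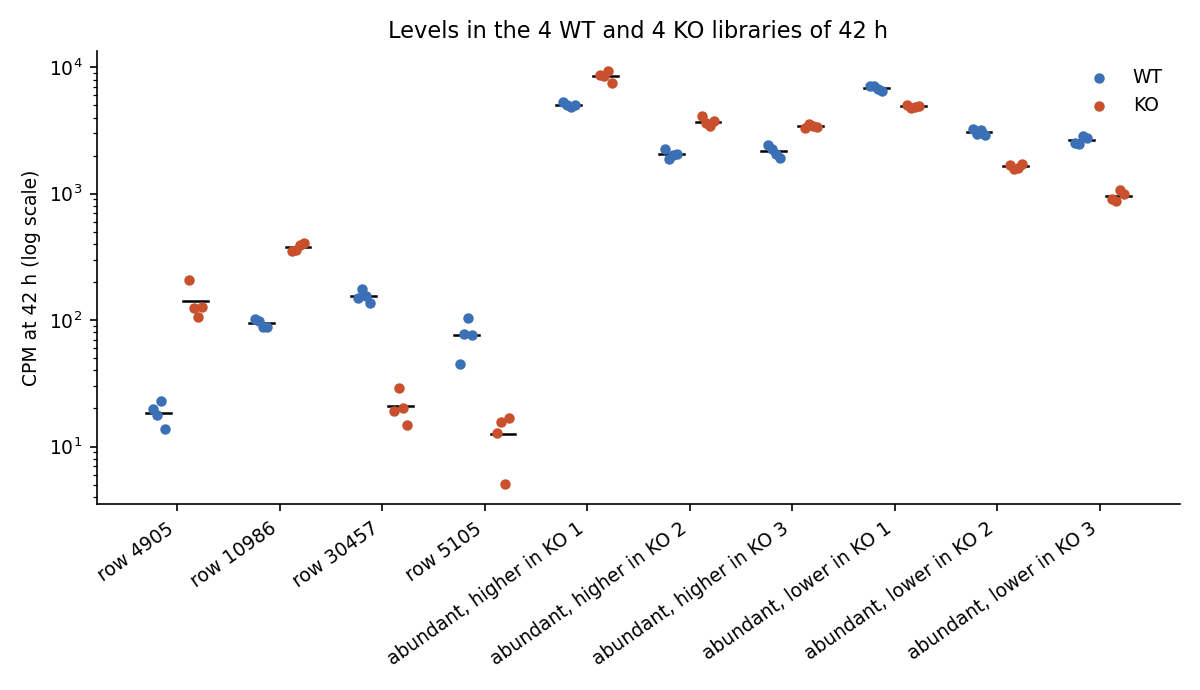
CPM (log scale) of 10 features in each library of 42 h, WT in blue and KO in orange, with the mean of each genotype as a black bar. The 4 rows with the largest changes come first and the 3 most abundant features called in each direction follow; the genotypes do not overlap, which the choice fixed for the 4 rows and not for the other 6.

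The largest fitted change of all, singled out after its value was seen, belonged to a feature nearly silent in WT. It had 1, 1, 0 and 0 counts in the WT libraries and 21, 23, 6 and 12 in the KO libraries. The ratio of its summed level was 38.6 (95% exact interval 10.2 to 326, for counting error only). At 42 h it had more than 1 count in KO libraries only, and it was picked for its size, so these values are a description. No feature with counts in a single genotype at 42 h was tested. Over all features, 855 had no count in WT and at least 1 in KO, and 1362 had none in KO and at least 1 in WT. The most counts on the other side were 9 and 16, and the filter on low counts removed all of these features. The WT libraries averaged 562396 counts and the KO libraries 476910, and the part of depth in these numbers was not tested.

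The absence of a call was informative for part of the features. Among 7216 features not called, 2006 (27.8%) had a 95% interval of the change that lay within 1.5-fold in either direction. For the other 5210 a change of 1.5-fold or more was compatible with the interval, and for 1498 a change of 2-fold. The median SE of the log2 change was 0.35 below 30 CPM, 0.24 from 30 to 100 CPM, 0.16 from 100 to 300 CPM and 0.14 in both higher classes. The spread between libraries was wider in KO than in WT in each class, for example a median SD of 0.40 against 0.33 log2 units below 30 CPM. The part of KO replicate 3, the shallowest library, in this spread was not tested.

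The differences between genotypes at 42 h were largely those of the other times. A fit of the 40 libraries of the other 5 times called 3245 of 8169 features (39.7%) over all times together. Read in the 8 libraries of 42 h alone, which took no part in that choice, 3087 of the 3245 (95.1%) had the same direction, and their median change in that direction was 0.46 on the log2 scale against 0.47 at the other times. Among the 4924 features not called at the other times, 67.5% had the same direction. In the 8 libraries alone, 22.1% of all 8169 features were called at 42 h. Of the 3245, 1495 were called in the same direction and 1 in the opposite one. Of the 4924, 306 (6.21%) were called, 265 in the same direction and 41 in the opposite one.

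Large differences shared their direction most often. Of 194 features that differed by 2-fold or more over the other 5 times, all 194 had the same direction at 42 h and 175 (90.2%) were called there. Their median change was 1.26 at 42 h and 1.22 at the other times (log2). Of 814 features at 1.5 to 2-fold, 793 had the same direction and 524 were called. Of 2237 under 1.5-fold, 2100 had the same direction and 797 were called, 1 of them in the opposite direction. Chosen from 36 and 48 h, which share their library numbers with 42 h, 98.6% of 1852 features had the same direction. From 18, 24 and 30 h, which have other numbers, it was 92.3% of 2286. Features not called in these choices also differed, with 72.8% of 5180 in the same direction for 36 and 48 h and 66.2% of 5815 for 18 to 30 h. Library number and closeness in time to 42 h cannot be told apart here.

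**Figure D4:**
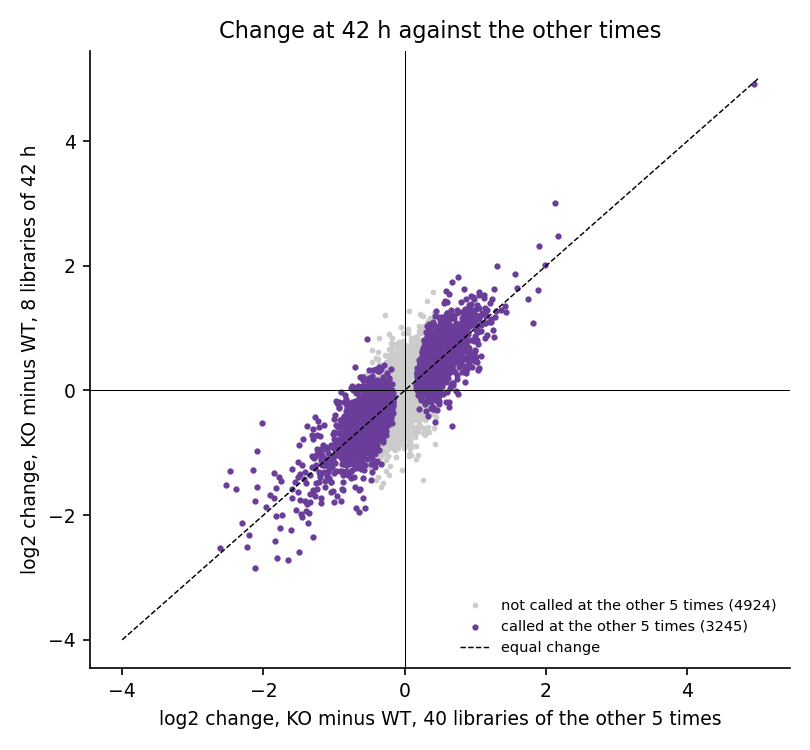
Log2 change in KO against WT for 8169 features, in the 40 libraries of the other 5 times (horizontal) and in the 8 libraries of 42 h (vertical), which share no library. Purple points are the 3245 features called at the other times, 95.1% of which have the same sign at 42 h; the dashed line marks equal change.

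Single times were compared within the 48-library fit. At 48 h, 1504 features were called (17.5%), and 854 were called at both 42 and 48 h, 61.0% of the calls at 42 h and 56.8% of those at 48 h. At 36 h, where the libraries were shallowest, 476 were called (5.52%), and the 373 shared were 26.6% of the 42 h calls and 78.4% of the 36 h calls. The earlier times called 674 (7.82%) at 18 h, 915 (10.6%) at 24 h and 796 (9.24%) at 30 h. They shared 388, 546 and 491 features with 42 h, or 27.7%, 39.0% and 35.05% of the 42 h calls and 57.6%, 59.7% and 61.7% of their own. All shared calls had the same direction at 36 and 48 h, and 2, 1 and 1 of them had opposite directions at 18, 24 and 30 h.

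Most 42 h calls recurred, in a fit that shares 1 spread per feature over all times. Single other times called 5.52 to 17.5% of all tested features. The share of all tested features called at 1 or more of them was not computed. Of the 1401, 135 were called in the same direction at all 5 other times, and 1055 (75.3%) at 1 or more. The remaining 346 (185 higher, 161 lower) had no such call elsewhere. Their mean change over the other 5 times had the same direction as at 42 h in 324 of 346 (93.6%), against 1053 of the 1055 recurring calls (99.8%). Its median in that direction was 0.31 on the log2 scale against 0.77 at 42 h, where they were selected. Of the 346, 229 had an unadjusted p under 0.05 (edgeR) in the same direction at 1 or more other times. The 346 were also lower in level, with a median of 52.4 CPM against 92.2 CPM for the recurring ones. Across the 3771 features whose log2 CPM averaged at least 6 over the series, the SD of the change was 0.41 at 42 h, within the 0.39 to 0.47 of the other times. A change of 2-fold or more was fitted for 2.63% of them at 42 h, against 4.69% at 48 h and 1.54 to 2.23% at the earlier times.

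No feature was shown to differ between the genotypes in a way particular to 42 h. Against the mean of the other 5 times, 0 of 8617 features (0%) passed the edgeR test of the difference in KO effect. DESeq2 and limma also called 0. An unadjusted p under 0.05 (edgeR) was reached by 423 (4.91%), where about 431 would be by chance. Against 36 and 48 h alone, a contrast in which the library numbers cancel, 0 passed as well (0%), with 0 in DESeq2 and limma. There 249 (2.89%) had an unadjusted p under 0.05 (edgeR), fewer than the 431 by chance. The median SE of the difference in KO effect was 0.27 and 0.32 on the log2 scale, so small differences between times were not detectable. Larger ones could fail as well. The second of the features described in the closing observations differed from the other 5 times by 1.46 (SE 0.33). It did not pass (adjusted p = 0.116, edgeR). Of the single times, 18 h gave 3 features with a different KO effect and 24, 30, 36 and 48 h gave 0 each, in tests chosen after the data were seen. The 3 features are described in the closing observations.

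The 4 rows with the largest changes at 42 h had the same direction, and a call, at every time. Row 10986 changed by 1.63 to 2.00 from 18 to 36 h, by 2.01 at 42 h and by 2.91 at 48 h (log2). In KO it stayed at 254 to 379 CPM throughout, while in WT it was lowest at 48 h, at 45.9 ± 11.4 CPM (SD, n = 4). Row 4905 changed by 1.08 to 1.55 up to 30 h and by 2.91, 3.0 and 4.05 at 36, 42 and 48 h, and its mean KO level was 189.5, 142 and 153 CPM at those 3 times against 55.4 to 90.1 CPM before. The library number changed between 30 and 36 h. In WT, row 30457 was at 75.2 CPM at 18 h, 178 CPM at 30 h, 82.9 CPM at 36 h and 195 CPM at 48 h. In KO it was highest at 24 h (35.6 CPM), with 28.4 CPM at 18 h, 18.2 CPM at 36 h and 16.9 CPM at 48 h. Its log2 change was -1.15 at 18 h, -2.20 at 36 h, -2.84 at 42 h and -3.52 at 48 h. Row 5105 had WT means of 50.5, 94.7 and 145 CPM at 18, 24 and 30 h and of 48.4, 75.9 and 120 CPM at 36, 42 and 48 h, against 10.2 to 35.8 CPM in KO. The drop in WT from 30 to 36 h also falls at the change of library number. Measured against the other 5 times together, the 4 rows had differences of 0.85 (SE 0.35), 0.01 (SE 0.19), -0.73 (SE 0.37) and -0.27 (SE 0.38) in the order rows 4905, 10986, 30457 and 5105, none of which passed (adjusted p of 0.963 or more, edgeR).

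**Figure D5:**
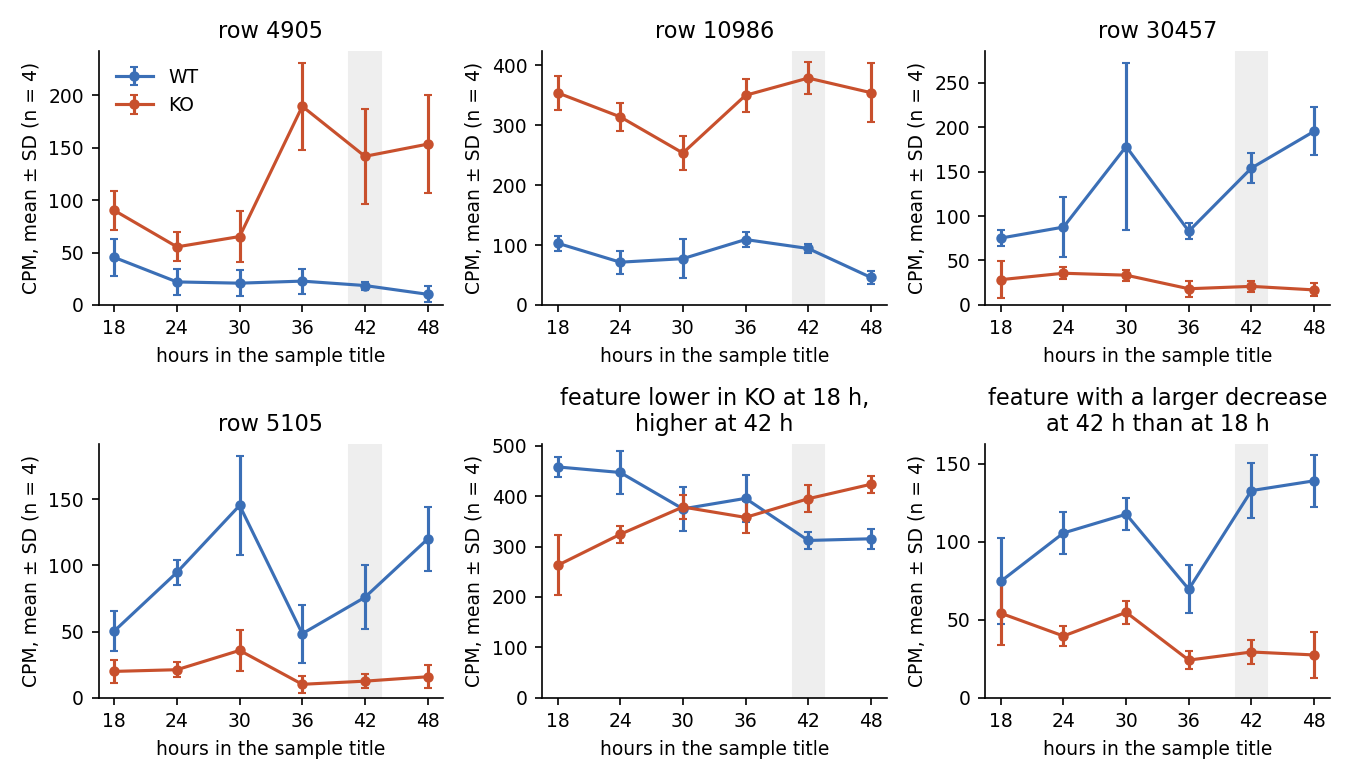
Mean CPM ± SD (n = 4) by the hours in the sample title for WT (blue) and KO (orange), with 42 h shaded. The first 4 panels are the rows with the largest changes at 42 h, which keep their direction at every time, and the last 2 are features whose KO effect differed between 42 and 18 h.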

How the data were processed

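The deposited table holds whole-number counts per feature. Per the file headers the alignments counted were the accepted ones, sorted and deduplicated. STAR 2.5.4b and mm10 (GRCm38) are listed in the submitters' processing notes. Not given in the sources used here were the counting tool, the annotation, the strand setting and any use of molecular identifiers. Of 180 columns, 48 matched a sample by library name, and 132 were not used. Of 32377 features, 8617 passed filterByExpr (minimum count 10, minimum total 15), with 97.3% of the counts at 42 h.

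Counts were fitted with edgeR 4.0.16 in R 4.3.3 (TMM, quasi-likelihood, a mean for each of 12 groups), and p-values were adjusted over all tested features by Benjamini-Hochberg. Fold changes come from this fit, and CPM values were scaled by TMM. All tests were two-sided. limma 3.58.1 and DESeq2 1.42.0 were alternatives. The fit was tested on simulated data. Same-numbered WT and KO libraries did not deviate together (correlations -0.121 to -0.0150 over 4 pairs), so numbers were not taken as pairs. Replicates differed by more than sampling noise (chi-square per degree of freedom 1.19 to 1.92). Named rows were the 2 largest rises and falls among calls with average log2 CPM of at least 5, a count in every library and separate groups; the 3 most abundant calls in each direction are described without row numbers. The comparison, rules and tests were chosen with earlier results of these data known.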

Additional observations from a re-analysis of the deposited data

Results flagged for a closer look

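Of the comparisons of the KO effect at 42 h with single other times, the one with 18 h called 3 features, in a test added after the data had been seen. The libraries of 18 and 42 h carry different library numbers, so a difference between the times and one between the numbers cannot be told apart. The first feature turned from lower to higher in KO, with a difference of 1.11 between the log2 changes (SE 0.18, adjusted p = 1.97e-04, edgeR). WT levels were 458 ± 20.2 CPM at 18 h and 312 ± 16.7 CPM at 42 h, and KO levels 263 ± 59.5 and 395 ± 27.0 CPM (SD, n = 4). Its change at 42 h alone was small, at 0.35, and its call was lost in 14 of 23 alternatives. The second feature was at 50.1 ± 20.7 CPM in WT and 25.9 ± 5.86 in KO at 18 h, and at 30.6 ± 9.67 and 62.7 ± 19.9 CPM at 42 h (SD, n = 4). Its change turned from -1.10 to 1.2, a difference of 2.30 (SE 0.45, adjusted p = 0.0119, edgeR). At 42 h its groups overlapped, with WT up to 42.2 CPM and KO from 35.6 CPM, on 65 counts in WT and 124 in KO. A minimum count of 30 removed it, and its 42 h call held in 21 of the other 22 alternatives. The third had a change of -0.55 at 18 h, which did not pass (adjusted p = 0.119, edgeR), and of -2.11 at 42 h, a difference of -1.56 (SE 0.31, adjusted p = 0.0140, edgeR).

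No library of 42 h stood apart from the other 3 of its genotype in any of 34 sets of 4 values. The sets were depth, features at equal depth, share of the top 100, TMM factor and the CPM of the features described. About 1 in 20 unselected sets would by chance. The features described were chosen as calls, which favours close values within a genotype, so the sets are no measure of library quality. The principal components were not among these sets, and KO replicate 3 lay at one end of the second.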

How the results depend on the processing

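The 773 features higher and 628 lower in KO at 42 h stayed within 1.5 times under limma, median-of-ratios size factors (709 and 661), no filter, a minimum count of 30, and fits of only the 8 libraries or of 36 to 48 h. Of the 1401 calls, 95.6% were also called by limma and 69.1% by DESeq2. The exceptions were 502 higher with DESeq2, 45 and 75 against a minimum of 1.5-fold, and 317 and 265 with every library of 42 h thinned to 205518 counts, where fewer counts were left. Leaving out 1 library or 1 replicate number gave 431 to 664 higher and 388 to 624 lower, with fewer samples. The single library that moved a count past 1.5 times was KO replicate 1 (485 higher without it). With the replicate block, 703 were higher and 556 lower in the 48-library fit, and 765 and 640 in a fit of the 8 libraries alone. Without the block, the 8 libraries alone gave 956 higher and 785 lower. The block ended the 42 h call of the first of the 3 features that differed from 18 h (adjusted p = 0.0645, edgeR) and of no other described feature. No WT library correlated best with its own number.

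Tests against other times gave 0 features except 1 with no filter and 1 without replicate 4 (against the mean of 5 times; 0 to 1 over the left-out libraries), 1 without KO replicate 2 (against 36 and 48 h; 0 to 1) and 3 against 18 h only. Features of the other times kept their direction at 42 h in 92.3% when chosen from 18 to 30 h and 98.6% from 36 and 48 h. Among features not called there it was 66.2% and 72.8%. The difference in total counts, KO minus WT, was -85486 and lay between -153120 and 4978 with 1 library left out, the positive value without KO replicate 3. Rows 4905, 10986, 30457 and 5105 kept direction and call in all 23 alternatives. Where none is stated, the cause was not tested. The median SE of the log2 change was highest below 30 CPM (0.35), and the part of depth in it was not tested.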
